A study of Homo sapiens with 27 samples.

Results

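The genes described here are 8 members of the interleukin-6 family of cytokines and their receptors in MCF10A cells: the receptor chains OSMR, IL6ST, LIFR and IL6R, and the cytokines IL6, LIF, IL11 and CLCF1. They were taken by gene symbol, by a rule that uses no measured value, although the family was chosen with earlier results of these data known. They are 8 of the 36536 symbols or identifiers in the count table. Each member had a single row, and all 8 passed the filter on low counts that left 15575 genes for testing. IL6 had few or no counts outside the groups that received TGFB in combination, and those groups were enough to carry it past the filter.

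The cytokines of this family bind receptor complexes that share the signal-transducing chain gp130, encoded by IL6ST. Oncostatin M (OSM) signals through gp130 paired with OSMR or with LIFR, and leukemia inhibitory factor (LIF) through gp130 paired with LIFR. Interleukin-6 and interleukin-11 first bind their own receptor chains, IL6R and IL11RA, and CLCF1 acts through CNTFR, gp130 and LIFR. Assembled receptors activate Janus kinases (JAK) and the transcription factor STAT3, whose targets include the feedback inhibitor SOCS3.

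MCF10A is an established line of human breast epithelium that does not form tumours. Cells were plated on collagen-1 in a growth medium with insulin (10 µg/ml), cholera toxin (100 ng/ml), hydrocortisone (0.5 µg/ml), epidermal growth factor (EGF, 20 ng/ml), horse serum (5%) and penicillin with streptomycin (1%). They attached for 6 h and were then kept for 18 h in a medium free of growth factors. At that point the T0 group was collected, with no treatment. The other 8 groups received fresh growth-factor-free medium for 24 h, with phosphate-buffered saline (PBS), with EGF, OSM or transforming growth factor beta (TGFB) alone, with each pair of these ligands, or with all 3, each ligand at 10 ng/ml. Every group thus had the earlier exposure to EGF and serum, and the T0 and PBS groups differed in the further 24 h of culture. Each group had 3 RNA-seq libraries of polyadenylated RNA, 27 in all. The labels do not say that replicates came from separate cultures, so the p-values measure the spread between these samples, which may be technical.

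Totals of single libraries lay between 30.1 and 52.9 M (mega) counts (median 39.5 M). Expression is stated as CPM, counts per 1 M counts on TMM-scaled library sizes, as mean ± SD over the 3 libraries of a group, and differences as log2 fold changes ± SE from the quasi-likelihood test of edgeR, with p-values adjusted by Benjamini and Hochberg's method over all genes tested. "Rose" and "fell" mean an adjusted p under 0.05. All 10 epithelial markers examined, among them KRT5, KRT14, EPCAM, CDH1 and TP63, were over 1 CPM in every group, and their summed level ran from 10444 to 25642 CPM over the libraries. Of 5 immune markers only CD68 passed 1 CPM. Of 5 fibroblast markers DCN and COL1A1 passed 1 CPM, with a summed level of the list from 13.1 CPM in EGF+OSM to 214 CPM in TGFB. The 4 endothelial markers summed to 31.3 to 35.3 CPM in PBS, through VWF and KDR, and to 0.754 to 1.26 CPM in EGF+TGFB. The part of these shifts in the results below was not tested, and in RNA from whole cultures a smaller share of expressing cells and less RNA per cell cannot be told apart.

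OSMR, the receptor chain that binds OSM together with gp130, lies on chromosome 5 at 38845858 to 38945596 (GRCh38, plus strand). Its level in the 3 libraries was 84.1, 80.0 and 75.7 CPM in PBS and 121, 123 and 121 CPM in T0. Single ligands gave 157, 155 and 145 CPM with EGF, 166, 169 and 161 CPM with TGFB, and 578, 587 and 503 CPM with OSM. The combinations gave 381, 383 and 336 CPM with EGF+OSM, 370, 350 and 298 CPM with EGF+TGFB, 827, 824 and 765 CPM with OSM+TGFB, and 768, 769 and 697 CPM with all 3. No treated library overlapped a PBS library, and every library with OSM lay above every library with EGF or TGFB alone. Going down from OSM+TGFB, the only neighbouring groups whose ranges overlapped were OSM+TGFB with all 3 ligands, and EGF+OSM with EGF+TGFB. Replicate 3 held the lowest OSMR level in 9 of 9 groups.

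Against PBS, OSMR rose with OSM by 2.80 ± 0.07 log2 units (6.96-fold, adjusted p = 1.7e-20). It rose less with TGFB (1.05 ± 0.07, adjusted p = 9.2e-12) and with EGF (0.93 ± 0.07, adjusted p = 1.1e-11). OSM+TGFB gave the highest mean, 10.1-fold over PBS (3.33 ± 0.08). OSMR thus made up more of the mRNA measured after any of the 3 ligands. EGF also raised OSMR on top of TGFB (1.04 ± 0.07, adjusted p = 1.5e-12) and lowered it on top of OSM (−0.60 ± 0.07, adjusted p = 5.0e-08). On top of OSM+TGFB its difference was −0.11 ± 0.07 (adjusted p = 0.18). The ranges overlapped, but each library with all 3 ligands lay below the OSM+TGFB library of its own number, and with the replicate number as a block the difference was called (adjusted p = 0.027, in a range of 0.027 to 0.50 over the alternatives). Whether EGF acted on OSMR with OSM as it did without was tested by the EGF x OSM interaction, which gave −1.53 ± 0.10 (adjusted p = 7.4e-12). Between T0 and PBS, OSMR fell by 0.61 on the log2 scale (adjusted p = 2.6e-07).

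IL6ST, the gp130 chain itself (chromosome 5, 55935095 to 55995022, minus strand), moved over a narrower range. PBS libraries held 154, 143 and 145 CPM and T0 libraries 140, 137 and 127 CPM. EGF alone gave 159, 153 and 160 CPM and TGFB alone 134, 151 and 143 CPM, and both overlapped PBS. OSM alone gave 188, 195 and 199 CPM, with no overlap with PBS. The pairs stood at 198, 193 and 199 CPM (EGF+OSM), 238, 212 and 218 CPM (EGF+TGFB) and 252, 265 and 253 CPM (OSM+TGFB), and all 3 ligands at 296, 281 and 288 CPM. Neighbours in the order of the means that did not differ beyond their spread were EGF+OSM with OSM, and EGF, PBS, TGFB and T0 in turn.

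IL6ST rose with OSM by 0.39 ± 0.05 log2 units (adjusted p = 1.5e-07), and with all 3 ligands by 0.97 ± 0.05 (1.96-fold, adjusted p = 2.8e-15). EGF and TGFB alone gave 0.10 ± 0.05 (adjusted p = 0.080) and −0.05 ± 0.05 (adjusted p = 0.52). Together they raised IL6ST by 0.60 ± 0.05 (adjusted p = 4.9e-11), and the EGF x TGFB interaction was 0.55 ± 0.07 (adjusted p = 3.1e-06). The EGF value passed the threshold in DESeq2 (adjusted p = 0.035), in a fit of the compared groups alone and without PBS replicate 1; over all alternatives its adjusted p ran from 0.025 to 0.56. OSM and TGFB also gave more together than their sum (OSM x TGFB interaction 0.45 ± 0.07, adjusted p = 4.4e-05). The change of IL6ST from T0 to PBS was called at 0.13 ± 0.05 (adjusted p = 0.044) and lost the call in 6 of 13 alternatives, among them leaving out T0 replicate 2 or 3 or PBS replicate 1 or 3 (adjusted p from 0.021 to 0.22).

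LIFR, the other partner of gp130 for OSM and the receptor chain for LIF (chromosome 5, 38474668 to 38608354, minus strand), was the least abundant of the receptor chains per unit length in every group. Its libraries held 21.7, 19.3 and 18.2 CPM in PBS, 20.2, 23.3 and 15.4 CPM in T0, 23.7, 24.0 and 18.7 CPM with OSM, and 21.8, 23.0 and 19.7 CPM with TGFB. With OSM+TGFB they held 24.7, 24.3 and 19.9 CPM. These 5 groups overlapped one another. The groups with EGF stood lower: 8.63, 7.82 and 8.93 CPM with EGF, 7.85, 8.61 and 7.08 CPM with EGF+OSM, 10.8, 10.1 and 9.43 CPM with EGF+TGFB, and 15.6, 15.6 and 12.6 CPM with all 3. No library with EGF overlapped a PBS library, although 2 libraries with all 3 ligands lay above the lowest T0 library.

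LIFR fell with EGF in each of 4 settings. Its log2 fold change was −1.22 ± 0.13 for EGF alone (adjusted p = 7.7e-09), −1.495 ± 0.13 on top of OSM (adjusted p = 9.9e-10), −1.09 ± 0.13 on top of TGFB (adjusted p = 6.5e-08) and −0.65 ± 0.13 on top of OSM+TGFB (adjusted p = 0.00015). OSM and TGFB alone gave 0.17 ± 0.12 (adjusted p = 0.25) and 0.13 ± 0.12 (adjusted p = 0.46). In cells given EGF and OSM, TGFB raised LIFR by 0.90 ± 0.14 (adjusted p = 3.0e-06), and in cells given EGF and TGFB, OSM raised it by 0.53 ± 0.13 (adjusted p = 0.0038). The OSM+TGFB group against PBS (0.22 ± 0.13, adjusted p = 0.12) passed the threshold without OSM+TGFB replicate 3 (0.32), with adjusted p from 0.026 to 0.36 over the alternatives.

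IL6R, the ligand-binding chain for interleukin-6 (chromosome 1, 154405193 to 154469450, plus strand), fell against PBS in every group with EGF or OSM. The libraries held 122, 123 and 123 CPM in PBS, 147, 141 and 119 CPM in T0, and 115, 113 and 113 CPM with TGFB. OSM gave 73.4, 74.6 and 56.7 CPM, OSM+TGFB 52.4, 49.2 and 41.8 CPM, and EGF 35.2, 34.3 and 37.0 CPM. The lowest groups were EGF+OSM with 29.0, 25.8 and 28.9 CPM, EGF+TGFB with 19.6, 16.3 and 21.5 CPM, and all 3 ligands with 17.3, 17.1 and 15.95 CPM. In that order only T0 with PBS, and EGF+TGFB with all 3 ligands, overlapped.

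Against PBS, IL6R fell with EGF by 1.79 on the log2 scale (3.46-fold lower, adjusted p = 8.0e-14) and with OSM by 0.85 (adjusted p = 3.9e-08). TGFB alone gave −0.11 ± 0.09 (adjusted p = 0.40) although its libraries lay below those of PBS. That value passed the threshold when only the compared groups were fitted, with adjusted p from 0.041 to 0.53 over the alternatives. TGFB lowered IL6R further in cells given EGF, by 0.90 (SE 0.10, adjusted p = 1.0e-07), and the EGF x TGFB interaction was −0.79 ± 0.14 (adjusted p = 0.00016). With all 3 ligands IL6R was 7.30-fold lower than in PBS. In cells given EGF, OSM lowered IL6R by 0.35 (SE 0.10, adjusted p = 0.0089). Without EGF+OSM replicate 2 that call was lost (0.051, over a range of 0.0016 to 0.051). On top of EGF+TGFB, OSM gave −0.18 ± 0.11 for IL6R (adjusted p = 0.26), which was not called.

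**Figure D1:**
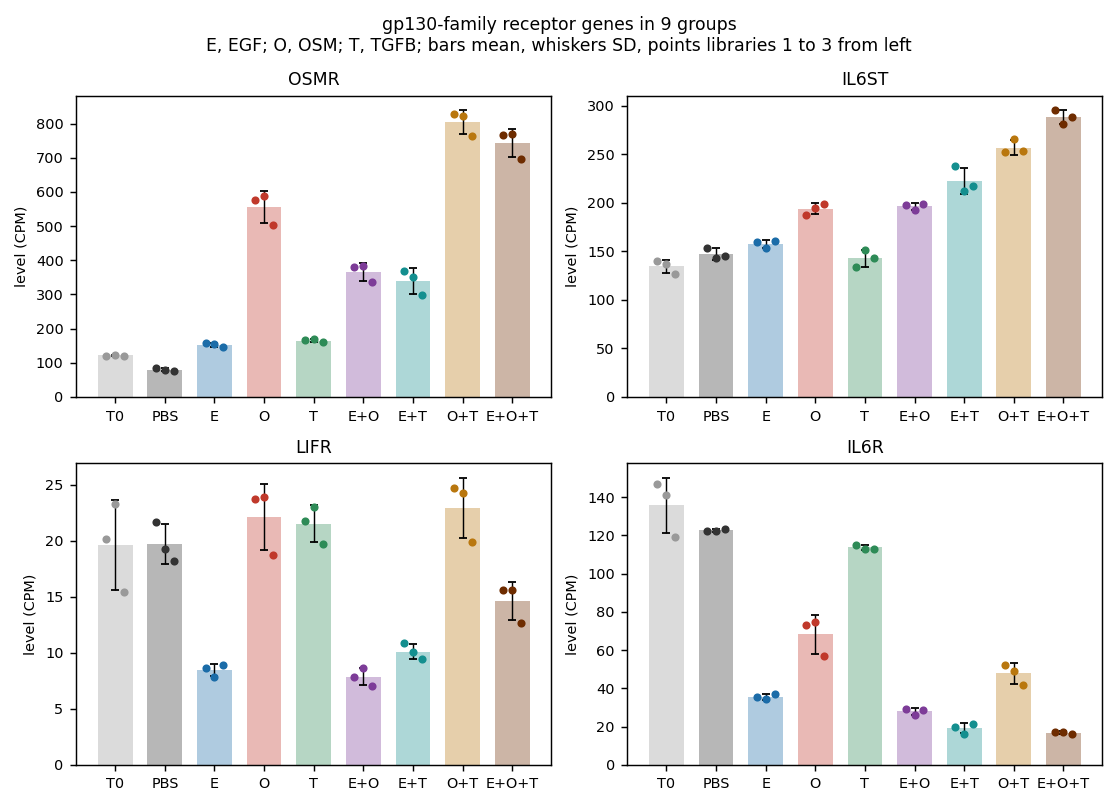
Levels of the 4 receptor chains in CPM (vertical axes) in each of the 9 groups (horizontal axis, E for EGF, O for OSM, T for TGFB), with bars for the mean, whiskers for the SD and points for libraries 1 to 3 from left to right. OSMR is highest in the groups with OSM, reaching 805 ± 35.03 CPM with OSM+TGFB, while IL6R and LIFR are lowest in groups with EGF.

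Levels of the receptor chains were set side by side per kilobase of the MANE Select transcript (GENCODE v44), and their order differed between groups. A single length per gene was used, and which transcripts were expressed was not examined. Before division by length, IL6ST (147 CPM) stood above IL6R (123 CPM) in PBS. In PBS, IL6R stood at 21.3 ± 0.117 CPM per kb, IL6ST at 16.3 ± 0.638, OSMR at 14.5 ± 0.763 and LIFR at 1.87 ± 0.172 (SD, n = 3). With all 3 ligands OSMR led with 135 ± 7.40 CPM per kb, ahead of IL6ST at 31.9 ± 0.811, IL6R at 2.91 ± 0.127 and LIFR at 1.39 ± 0.164. The ratio of OSMR to LIFR per kb, 7.76 ± 0.317 in PBS, was 34.5 ± 3.36 with EGF, 48.2 ± 2.67 with OSM and 97.8 ± 6.67 with all 3. The pairs gave 89.4 ± 3.92 (EGF+OSM), 63.9 ± 3.21 (EGF+TGFB) and 67.3 ± 5.27 (OSM+TGFB). The ratio of OSMR to IL6ST per kb went from 0.886 ± 0.0328 in PBS to 4.70 ± 0.491 with OSM and 5.12 ± 0.219 with OSM+TGFB. The ratio of IL6R to IL6ST per kb went the other way, from 1.31 ± 0.0546 in PBS to 0.353 ± 0.00818 with EGF and 0.0913 ± 0.00439 with all 3. These ratios are descriptions of mRNA levels and were not tested.

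**Figure D2:**
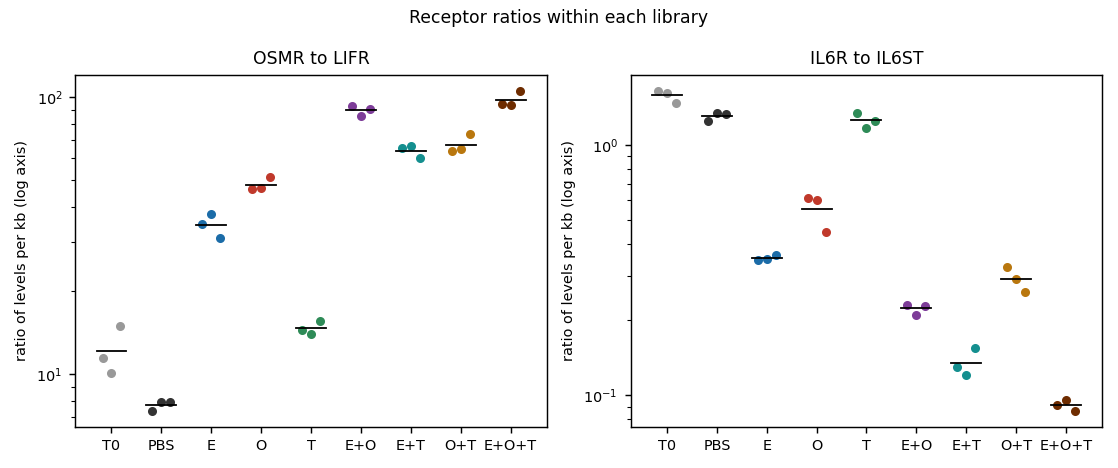
Ratios of receptor-chain levels per kilobase of transcript (vertical axes, log scale) in each of the 9 groups (horizontal axis), with points for single libraries and lines for means (E for EGF, O for OSM, T for TGFB). OSMR relative to LIFR runs from 7.40 to 7.96 in the PBS libraries and from 93.8 to 105 in those with all 3 ligands, and IL6R relative to IL6ST lies between 1.24 and 1.34 in PBS and between 0.0866 and 0.0954 with all 3.

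Among the cytokines, IL6 and IL11 were the ones with upstream sequence in the RefSeq promoter table (GRCh38.p14), which matched 6 of the 8 members. Both are printed here because their levels rose furthest in the combinations with TGFB. Each line gives bases upstream of the transcription start on the gene's strand, 5′ to 3′, with motif matches in capitals. For IL6 the line is the part of the 250-base window that lies outside annotated exons.
IL6, chr7:22726950-22727146, plus strand: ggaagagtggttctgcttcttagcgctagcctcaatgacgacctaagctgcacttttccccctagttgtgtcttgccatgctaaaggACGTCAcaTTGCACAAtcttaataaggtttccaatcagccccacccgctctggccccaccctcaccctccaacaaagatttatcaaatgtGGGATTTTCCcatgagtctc
IL11, chr19:55370464-55370713, minus strand: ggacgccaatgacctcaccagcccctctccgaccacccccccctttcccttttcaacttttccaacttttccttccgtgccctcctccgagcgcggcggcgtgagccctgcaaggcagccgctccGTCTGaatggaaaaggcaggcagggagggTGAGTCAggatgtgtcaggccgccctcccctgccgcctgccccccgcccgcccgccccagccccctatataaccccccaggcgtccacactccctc

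In the IL6 line the capitals mark matches to a CRE core (TGACGT, here on the other strand), a C/EBP motif (TTGCNNAA) and an NF-kB motif (GGGA and TTCC with 2 bases between). They start 163, 155 and 73 bases before the start site. In the IL11 line they mark a SMAD box (CAGAC, on the other strand) and an AP-1 motif (TGANTCA), 125 and 96 bases before the start. The IL6 window also held a SMAD box 11 bases before the start, outside the part printed. Searched on both strands of 35116 windows of 250 bases, these letters occurred in 7.10% (CRE core), 9.05% (C/EBP), 1.40% (NF-kB), 6.57% (AP-1) and 38.0% (SMAD box) of windows. A STAT motif (TTCNNNGAA) occurred in 6.57% of windows and in neither of the IL6 and IL11 windows. The motifs do not share positions within the lines printed. A match describes letters and not a bound site.

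IL6, interleukin-6 itself (chromosome 7, 22725884 to 22732002, plus strand), had 0 counts in each of the 3 PBS libraries and 1, 2 and 0 counts in T0. Single ligands gave 3, 2 and 1 counts with EGF, 6, 4 and 3 with OSM, and 12, 11 and 9 with TGFB. EGF+OSM gave 10, 13 and 10 counts. The remaining combinations were far higher: 272, 315 and 136 counts (7.48, 6.38 and 4.66 CPM) with EGF+TGFB, 76, 98 and 120 counts (2.13, 2.82 and 3.48 CPM) with OSM+TGFB, and 617, 353 and 480 counts (15.1, 12.3 and 15.0 CPM) with all 3. Every library that received TGFB with another ligand stood above every other library, and these 3 groups did not overlap. The EGF+OSM and TGFB groups overlapped, as did EGF with T0.

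Because PBS was at 0, differences of IL6 from PBS are given as lower bounds, against 3 counts over the whole PBS group. IL6 was at least 606-fold higher with all 3 ligands, at least 267-fold with EGF+TGFB and at least 119-fold with OSM+TGFB. For TGFB alone the bound was 11.6-fold, for EGF+OSM 11.7-fold, for OSM 4.70-fold and for EGF 1.87-fold. Between groups with counts, EGF raised IL6 in cells given TGFB by 4.48 ± 0.25 log2 units (22.3-fold), and OSM did so by 3.34 ± 0.26 (10.1-fold). No p is given for these differences, since IL6 entered the test through the higher group of each. OSM added 1.19 ± 0.18 to EGF+TGFB (adjusted p = 2.2e-05). EGF+OSM was above OSM by 1.29 ± 0.42 (adjusted p = 0.010), a call that was lost without OSM replicate 2 (0.052, over a range of 0.0061 to 0.052).

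LIF, the cytokine that acts through LIFR (chromosome 22, 30240453 to 30246759, minus strand), was moved in opposite directions by OSM and the other ligands. PBS libraries held 2.78, 2.98 and 1.88 CPM and T0 libraries 1.62, 2.51 and 2.33 CPM. EGF gave 8.28, 7.06 and 6.02 CPM, TGFB 5.51, 5.76 and 5.16 CPM, and EGF+TGFB 20.5, 23.1 and 18.6 CPM. OSM gave 0.712, 0.821 and 0.540 CPM, EGF+OSM 0.894, 1.05 and 0.632 CPM, OSM+TGFB 0.730, 0.948 and 1.19 CPM, and all 3 ligands 1.74, 1.60 and 2.13 CPM. Every library without OSM that received EGF or TGFB lay above PBS, and every library with OSM and at most 1 other ligand lay below it. The groups OSM, EGF+OSM and OSM+TGFB overlapped one another.

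LIF rose with EGF by 1.48 ± 0.18 (adjusted p = 5.6e-08), with TGFB by 1.102 ± 0.18 (adjusted p = 3.0e-05), and with EGF+TGFB by 3.02 ± 0.18 (8.13-fold, adjusted p = 7.9e-14). OSM lowered LIF in each of the 4 settings in which it was added. Its log2 fold change was −1.87 ± 0.23 alone (adjusted p = 9.1e-08), −3.05 ± 0.21 with EGF (adjusted p = 1.2e-11), −2.52 ± 0.21 with TGFB (adjusted p = 1.6e-10) and −3.51 ± 0.19 with EGF+TGFB (adjusted p = 2.2e-13). The fall with OSM was larger with EGF than without it (EGF x OSM interaction −1.18 ± 0.32, adjusted p = 0.0049). With all 3 ligands LIF was called lower than in PBS (−0.48 ± 0.20, adjusted p = 0.036), but the ranges overlapped. That call was lost without PBS replicate 1 or 2 and without replicate 1 or 2 of the 3-ligand group (adjusted p from 0.0066 to 0.17 over 13 alternatives).

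IL11, interleukin-11, a cytokine known as a TGFB target (chromosome 19, 55364382 to 55370463, minus strand), was low in PBS with 0.550, 0.280 and 0.367 CPM and in T0 with 0.894, 0.585 and 0.676 CPM. EGF gave 2.54, 2.02 and 1.76 CPM, OSM 1.62, 1.22 and 1.19 CPM, and TGFB 2.40, 2.26 and 2.78 CPM. EGF+OSM gave 0.542, 0.489 and 0.303 CPM, which overlapped PBS and lay below both EGF and OSM alone. EGF+TGFB gave 10.4, 10.9 and 9.63 CPM, OSM+TGFB 6.32, 5.11 and 6.36 CPM, and all 3 ligands 5.94, 6.06 and 4.64 CPM. The OSM+TGFB and 3-ligand groups overlapped, as did TGFB and EGF.

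Each ligand alone raised IL11 over PBS: EGF by 2.41 ± 0.23 (5.30-fold, adjusted p = 9.9e-10), OSM by 1.75 ± 0.25 (3.37-fold, adjusted p = 8.4e-07) and TGFB by 2.64 ± 0.23 (6.24-fold, adjusted p = 1.2e-09). EGF and OSM together gave 0.17 ± 0.29 (adjusted p = 0.61), and their interaction was −3.99 ± 0.34 (adjusted p = 8.0e-10), the term furthest from 0 among the members with a value. OSM thus raised IL11 in cells without EGF, alone and on top of TGFB (1.26 ± 0.18, adjusted p = 1.6e-06). It lowered IL11 in cells with EGF, by 2.24 on the log2 scale without TGFB (adjusted p = 2.4e-08) and by 0.89 with it (adjusted p = 0.00023). EGF+TGFB was the highest group, at 25.9-fold over PBS (4.70 ± 0.22, adjusted p = 6.5e-16). With TGFB present that term was smaller in size, and the 3-way interaction that tests this was 1.84 ± 0.42 (adjusted p = 0.013).

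CLCF1, cardiotrophin-like cytokine factor 1 (chromosome 11, 67364168 to 67374177, minus strand), held 3.15, 2.91 and 3.23 CPM in PBS and 4.34, 5.21 and 6.62 CPM in T0. EGF gave 15.8, 15.0 and 13.0 CPM, OSM 4.95, 4.61 and 5.37 CPM, and TGFB 7.67, 8.52 and 7.62 CPM. The combinations gave 8.26, 7.29 and 6.62 CPM (EGF+OSM), 28.5, 31.8 and 26.6 CPM (EGF+TGFB), 13.2, 12.0 and 13.3 CPM (OSM+TGFB), and 20.9, 23.4 and 22.7 CPM with all 3. No treated library overlapped PBS. Overlaps between neighbours in the order were EGF with OSM+TGFB, TGFB with EGF+OSM, and T0 with OSM.

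CLCF1 rose against PBS in all 7 treatments, from 0.68 ± 0.13 with OSM (adjusted p = 6.3e-05) to 3.23 ± 0.12 with EGF+TGFB (9.36-fold, adjusted p = 7.8e-18). OSM raised it alone and on top of TGFB (0.69 ± 0.11, adjusted p = 1.1e-05) and lowered it on top of EGF by 0.98 (SE 0.11, adjusted p = 1.3e-07). The EGF x OSM interaction was −1.67 ± 0.17 (adjusted p = 2.1e-08), the same sign as for IL11. On top of EGF+TGFB, OSM lowered CLCF1 by 0.38 (SE 0.11, adjusted p = 0.0080). That last call was lost without EGF+TGFB replicate 2 or without replicate 1 of the 3-ligand group (adjusted p from 0.0024 to 0.065).

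**Figure D3:**
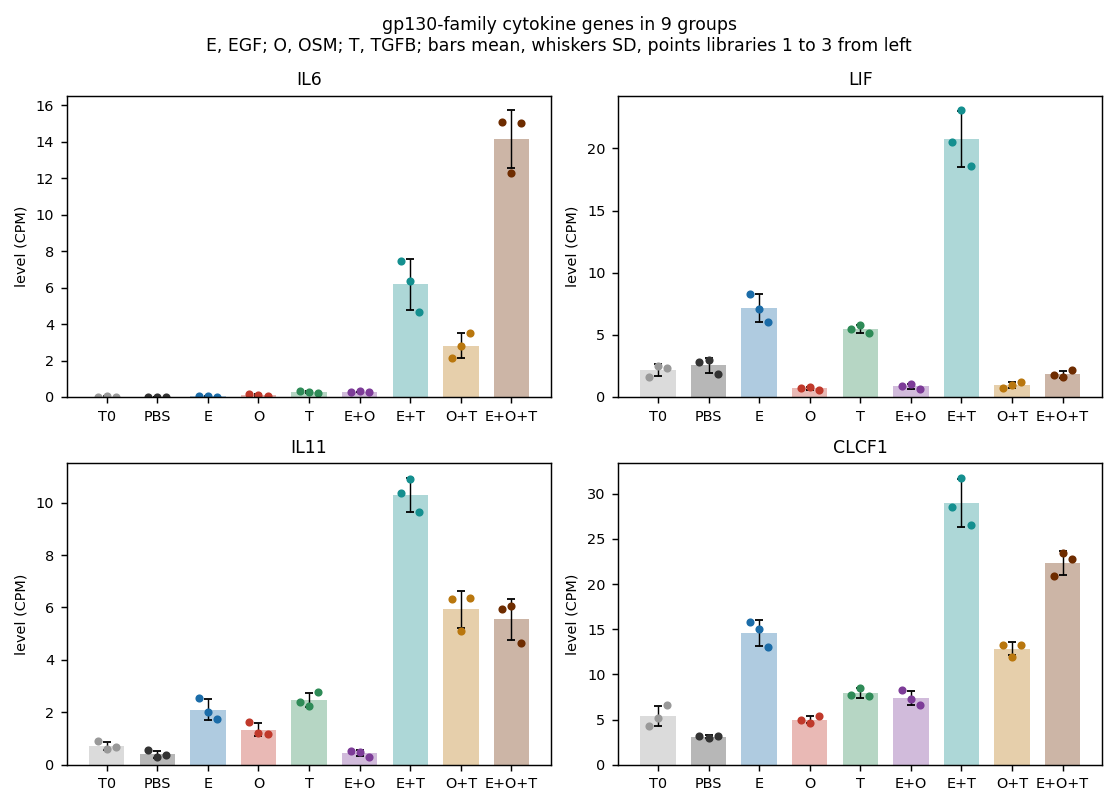
Levels of the 4 cytokines in CPM (vertical axes) in each of the 9 groups (horizontal axis, E for EGF, O for OSM, T for TGFB), with bars for the mean, whiskers for the SD and points for libraries 1 to 3 from left to right. LIF, IL11 and CLCF1 peak with EGF+TGFB, at 20.7 ± 2.25, 10.3 ± 0.646 and 28.9 ± 2.63 CPM, and IL6 with all 3 ligands, at 14.1 ± 1.60 CPM.

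Counted over the 8 members, EGF against PBS gave 5 higher and 2 lower, where 73.5% of all genes tested were called, 34.9% higher and 38.6% lower. The median of the members was 1.21 on the log2 scale (0.92 with IL6 at its bound), beside −0.07 over all genes. OSM gave 5 higher and 2 lower, where 63.4% of all genes were called (33.5% higher and 29.8% lower), with a median of 0.54 beside 0.00. TGFB gave 5 higher and left IL6ST, LIFR and IL6R uncalled, where 35.6% of all genes were called (19.9% higher and 15.8% lower), with a median of 1.07 beside −0.01. IL6 is among the members called higher in all 7 treatments against PBS, and it entered the test through groups in which it was high. All these comparisons share the PBS libraries, so their counts are not independent. With most genes called in several of them, a count of called members says little by itself, and sizes and directions carry the description.

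The pairs against PBS gave 4 higher and 3 lower with EGF+OSM (77.2% of all genes called), 6 and 2 with EGF+TGFB (73.7%), and 5 and 2 with OSM+TGFB (66.0%). All 3 ligands gave 5 higher and 3 lower (74.4% of all genes called). From T0 to PBS, IL6ST was higher and OSMR, IL11 and CLCF1 were lower, where 35.1% of all genes were called. CLCF1 fell by 0.80 (SE 0.13, adjusted p = 2.5e-05). IL11 fell by 0.85 (SE 0.26, adjusted p = 0.012), a call lost without T0 replicate 1 or PBS replicate 2 and in a fit of the 2 groups alone (adjusted p from 0.0040 to 0.092).

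Members were also counted for each ligand added to cells that already had another. These counts do not test whether settings differ, which the interactions do. IL6 is among the members called higher in each of them, and it entered the test through the groups with TGFB and another ligand. Its call is thus a description only where TGFB was added, and where EGF or OSM was added to TGFB alone. EGF added to OSM gave 2 members higher and 4 lower (61.7% of all genes called), added to TGFB 6 and 2 (69.4%), and added to OSM+TGFB 4 and 2 (52.2%). OSM added to EGF gave 3 higher and 4 lower (34.9% of all genes called), added to TGFB 5 and 2 (56.6%), and added to EGF+TGFB 4 and 3 (26.4%). TGFB added to EGF gave 6 higher and 1 lower (54.6% of all genes called), added to OSM 5 and 1 (51.6%), and added to EGF+OSM 7 and 1 (61.1%). TGFB lowered IL6R in each of the latter 3 settings and lowered no other member. Its effect on LIF was called on top of EGF (1.54 ± 0.17) and of EGF+OSM (1.08 ± 0.23), and on top of OSM alone it was 0.45 ± 0.26 (adjusted p = 0.16). These settings were not compared with one another for LIF. The OSM x TGFB term, which sets TGFB on top of OSM against TGFB alone, was −0.65 ± 0.32 (adjusted p = 0.16). The 3-way term was 0.19 ± 0.43 (adjusted p = 0.89).

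**Figure D4:**
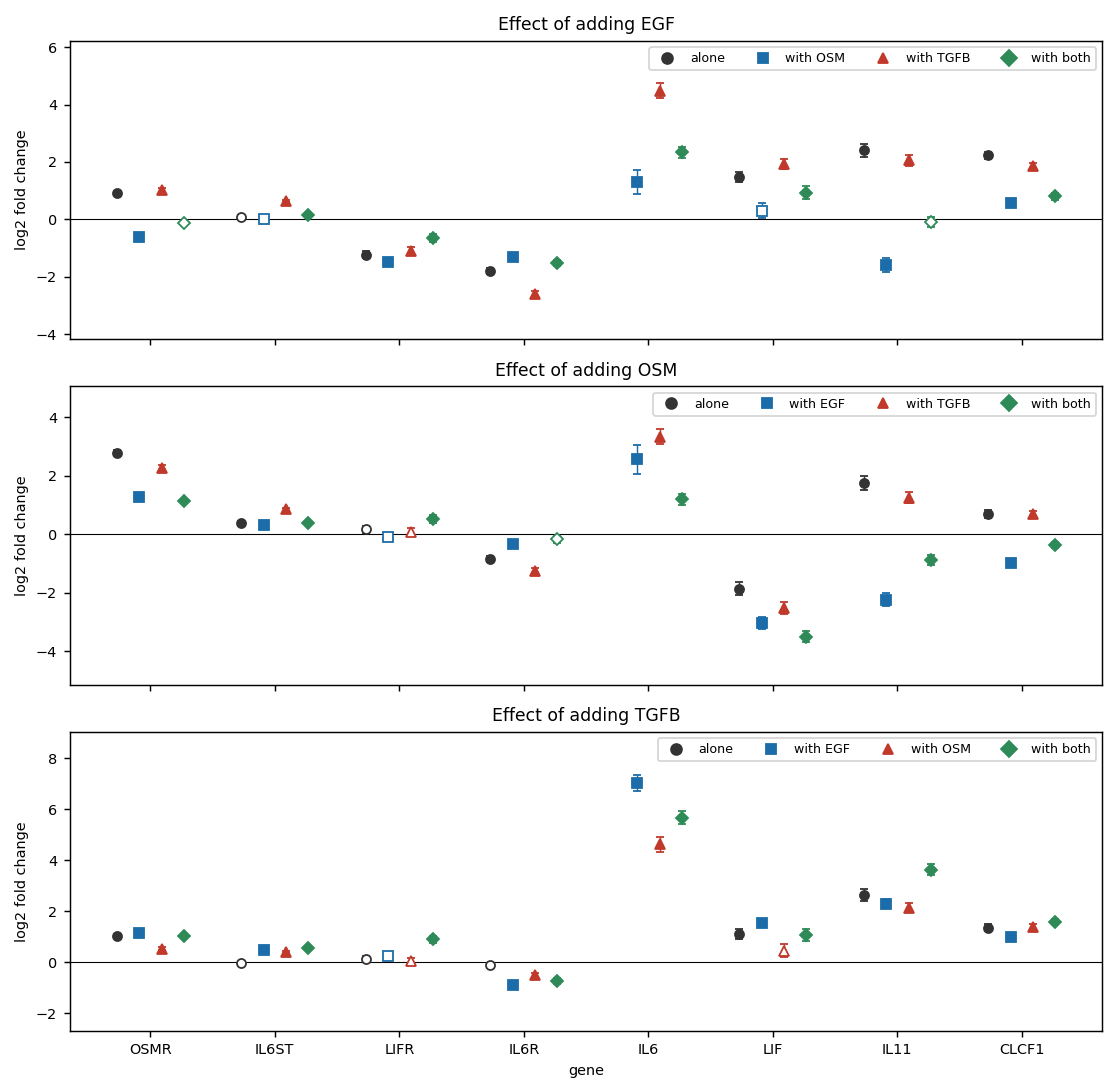
Log2 fold change (vertical axes) of each member (horizontal axis) when EGF, OSM or TGFB is added (panels from the top), by what the cells already received, with whiskers for the SE, filled markers for called changes and open markers for the rest. IL6 is left out where the comparison is with PBS, and IL11 and CLCF1 lie above 0 for OSM without EGF and below 0 with it.

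Departures from additive log2 fold changes were tested as interactions. Of the 8 members, 1 was called higher and 4 lower for EGF x OSM (38.7% of all genes called), 1 and 1 for EGF x TGFB (29.8%), and 1 and 2 for OSM x TGFB (23.3%). For the 3-way term 1 was higher (IL11) and 1 lower (IL6ST, −0.40 ± 0.10, adjusted p = 0.022), where 3.90% of all genes were called. The IL6ST call was lost without TGFB replicate 1 (adjusted p = 0.0503, in a range of 0.0021 to 0.0503 over its alternatives). For IL6R the EGF x OSM term was 0.50 ± 0.14 (adjusted p = 0.0060), so EGF and OSM lowered IL6R by less together than the sum of their separate falls. The OSM x TGFB term was −0.51 ± 0.10 for OSMR (adjusted p = 0.00045). For IL6R it was −0.40 ± 0.14 (adjusted p = 0.033) and lost the call in 10 of 18 alternatives, among them leaving out any of the PBS or TGFB libraries, OSM replicate 1 or 2, or OSM+TGFB replicate 3 (adjusted p from 0.0030 to 0.099). No interaction that uses PBS is given for IL6, since PBS was at 0.

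The EGF x OSM term within cells given TGFB was added after the data were seen, because it needs no PBS library and so gives a value for IL6. For IL6 it was −2.15 ± 0.33, with no p given, since IL6 entered the test through the groups with TGFB and another ligand. EGF and OSM each raised IL6 on top of TGFB, and their joint log2 fold change was below the sum of the separate ones. The joint gain in level was above the sum of the separate gains. IL6 stood at 0.274 CPM with TGFB, 6.17 CPM with EGF+TGFB, 2.81 CPM with OSM+TGFB and 14.1 CPM with all 3. In all, 1 member was higher and 6 lower, with IL6 among the 6, where 35.1% of all genes were called. OSMR was at −1.15 ± 0.10 (adjusted p = 1.5e-09), IL11 at −2.15 ± 0.25 (adjusted p = 2.0e-07) and CLCF1 at −1.07 ± 0.15 (adjusted p = 5.7e-06), each with the sign it had without TGFB. LIF was at −0.99 ± 0.29 (adjusted p = 0.0098), which missed the threshold without OSM+TGFB replicate 3 (0.063, in a range of 0.0037 to 0.063). IL6R was at 1.07 ± 0.15 (adjusted p = 3.5e-06) and IL6ST at −0.48 ± 0.07 (adjusted p = 7.2e-06). LIFR was at 0.44 ± 0.18 (adjusted p = 0.067), and passed without replicate 3 of the 3-ligand group, with upper-quartile scaling and with the replicate number as a block (adjusted p from 0.0064 to 0.18).

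**Figure D5:**
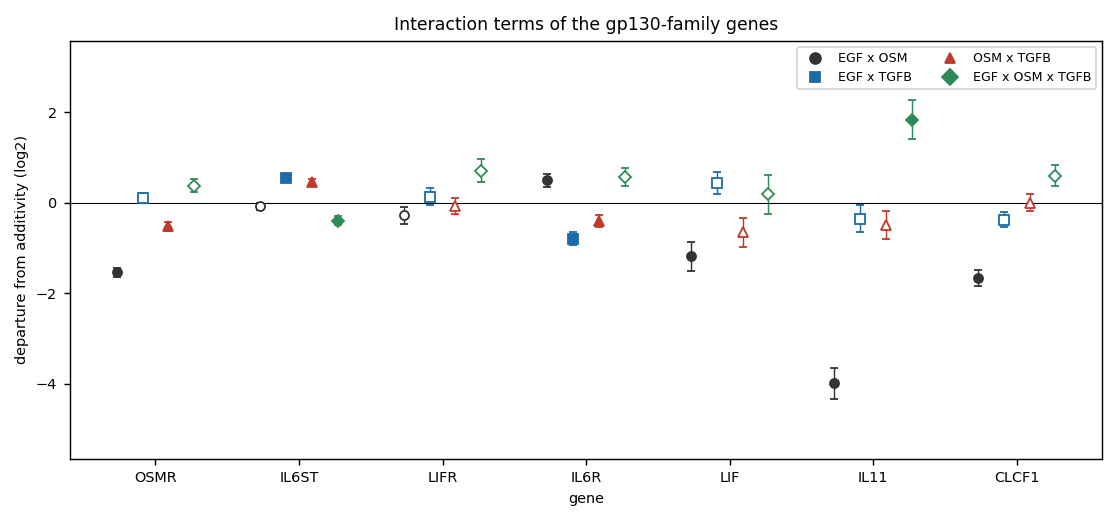
Interaction terms on the log2 scale (vertical axis) for each member but IL6 (horizontal axis), with whiskers for the SE, filled markers for called terms and open markers for the rest. The EGF x OSM term of IL11, at −3.99 ± 0.34, lies furthest from 0, and the called EGF x OSM terms of OSMR, LIF and CLCF1 lie on the same side.

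The other genes of the pathway were taken from 4 lists, also chosen with earlier results of these data known. Of 11 further ligands and receptors 6 were tested; OSM itself reached at most 4 counts in a library, IL27 3, EBI3 11, CNTFR 3 and IL31 0, and these stayed below the filter. With OSM 3 of the 6 fell and the other 3 were not called. IL11RA, the binding chain for interleukin-11, went from 3.03 ± 0.396 to 2.04 ± 0.269 CPM (−0.57 ± 0.17, adjusted p = 0.0054), and IL31RA, a relative of gp130 that pairs with OSMR, from 3.67 ± 0.265 to 2.29 ± 0.373 CPM (−0.69 ± 0.15, adjusted p = 0.00036). EGF raised 2 and lowered 3 of the 6, and TGFB raised 1. Over all genes, 29.8% fell with OSM, 34.9% rose and 38.6% fell with EGF, and 19.9% rose with TGFB.

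Of 8 signal transducers, OSM raised 5 and lowered 3 (33.5% and 29.8% of all genes), EGF raised 3 and lowered 5 (34.9% and 38.6%), and TGFB raised 2 and lowered 1 (19.9% and 15.8%). STAT3 went from 283 ± 16.6 CPM in PBS to 633 ± 73.5 CPM with OSM (1.16 ± 0.06, adjusted p = 3.6e-14). The kinases JAK1 (263 ± 5.07 to 168 ± 12.3 CPM) and JAK2 (11.6 ± 1.38 to 6.68 ± 0.871 CPM) fell with OSM, by 0.65 and 0.80. Of 8 negative regulators and sheddases, OSM raised 5 and lowered 2, beside the same 33.5% and 29.8% of all genes. The feedback inhibitor SOCS3 rose most, from 1.49 ± 0.319 to 165 ± 19.9 CPM (6.77 ± 0.15, adjusted p = 1.3e-20), while SOCS1 fell by 4.05 from 5.62 to 0.341 CPM. CISH (2.29 ± 0.15) and SOCS2 (1.62 ± 0.07) rose.

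Of 14 STAT3 targets 12 rose with OSM and the other 2, BCL6 and PIM1, were at −0.26 ± 0.12 and −0.22 ± 0.14 (adjusted p = 0.057 and 0.19), where 33.5% of all genes rose. Of the 12, LBP and FGG had 5 and 0 counts over the PBS group and entered the test through groups with OSM, so their rise was fixed by the filter and 10 of the other 12 genes rose. The acute-phase genes SERPINA3 (587 ± 108 to 2809 ± 1013 CPM, 2.26 ± 0.33) and LBP (0.0382 to 4.79 CPM) were among them, and FGG went from 0 counts in PBS to 2.48 CPM. With EGF 1 of the 14 rose and 11 fell (34.9% and 38.6% of all genes). The 1 that rose with EGF was FGG, with 13 counts over the group against 0 in PBS. With TGFB 2 rose and 5 fell (19.9% and 15.8%). With EGF+OSM 5 rose and 7 fell, where 77.2% of all genes were called, and with all 3 ligands 5 rose and 5 fell, where 74.4% were. With OSM+TGFB 10 rose and 1 fell, where 66.0% were called. LBP and FGG are among the genes that rose with EGF+OSM and with OSM+TGFB, and FGG among those that rose with all 3 ligands. Since both entered the test through groups with OSM, these counts share the limit given for OSM alone. The list holds genes that other pathways also regulate, and it includes STAT3 and SOCS3, which stand in other lists here.

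Across the 27 libraries, which share treatments and so are not independent points, the genes most like each member were ranked by Pearson's r of log2 CPM among 12659 genes. OSMR was most like UBE2Q2 (r = 0.986), SEPTIN10 (0.986) and CD44 (0.983). IL6R was most like PDCD4 (0.988), TFDP2 (0.986) and SESN1 (0.986), and LIFR most like PIK3IP1 (0.966), ADSS1 (0.964) and PHF21A (0.964). IL6ST was most like P4HB (0.972), VEGFA (0.971) and TFG (0.971). Among the cytokines, IL6 was most like MED15 (0.984), IL11 most like TUBA1A (0.980), CLCF1 most like CSRP1 (0.977), and LIF most like LGALSL (0.920), the lowest leading value of the 8. Ranked by Spearman's rho instead, TFDP2 stood at 125 for IL6R, ADSS1 at 75 for LIFR, and VEGFA and P4HB at 60 and 18 for IL6ST. CSRP1 stood at 10 and LGALSL at 3, while UBE2Q2, PDCD4, PIK3IP1, MED15 and TUBA1A kept rank 1. Between members, r was 0.902 for OSMR with IL6ST, 0.863 for IL11 with CLCF1 and −0.832 for IL6R with CLCF1. LIF, which OSM lowered, had −0.392 with OSMR.

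Several members overlap other annotated genes, and whether the counting used strand is not given in the sources used here. OSMR overlaps RICTOR, LIFR overlaps LIFR-AS1, IL6R overlaps IL6R-AS1, IL6 overlaps STEAP1B and IL6-AS1, LIF overlaps LIF-AS1 and LIF-AS2, and CLCF1 overlaps RAD9A, all on the other strand. CLCF1 also overlaps a protein-coding gene model on its own strand, so its counts may be shared with that model. IL6ST overlaps long noncoding RNA genes on the other strand. IL6ST and IL6R each have a processed pseudogene copy, IL6STP1 on chromosome 17 and IL6RP1 on chromosome 9. For IL11 the annotation holds no overlapping gene.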

How the data were processed

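Polyadenylated RNA was measured with a stranded kit in 27 libraries, per the labels. The authors deposited 1 table of 40487 genes with estimated counts, whole numbers in 100% of rows. The submitters' processing notes list Trim Galore 0.4.3, cutadapt 1.10, FastQC 0.11.5, kallisto 0.46.2, R 3.5.0 and builds GRCh38.p5 and hg38. The strand setting, rounding and summary to genes are not given in the sources used here. Library totals were 30.1 to 52.9 M (mega) counts. Depth limits IL6 most, with 0 to 13 counts in each library outside the combinations of TGFB with another ligand.

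Rows sharing a symbol were summed (36536 symbols or identifiers, 7165 rows without a symbol kept by identifier). In R 4.3.3 with edgeR 4.0.16, filterByExpr by group left 15575 genes, TMM factors were 0.867 to 1.12, and the quasi-likelihood fit had 1 mean per group for the 9 groups (18 residual degrees of freedom, biological coefficient of variation 7.83%, prior count 0.125). P-values were adjusted by Benjamini-Hochberg over all genes and called under 0.05. The procedure was tested on simulated data. Replicate pairs differed by more than sampling noise (chi-square per degree of freedom 7.92 to 33.1), and each library counted once. IL6 bounds use a floor of 3 counts over a group, which covers counting error only.

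The rule for members uses symbols alone, but this gene family and the gene lists were chosen with earlier results of these data known. All members were named, with at most 4 genes per list, those furthest from 0 among the genes called with OSM, and up to 3 most similar genes per member (mean of at least 1 CPM). Some genes that this rule names are not reported here. Alternatives were DESeq2 1.42.0, upper-quartile scaling, no filter, rows as deposited, a replicate block, a prior count of 2, Spearman's rho, only the compared groups, and leaving out each library. Gene coordinates are from GENCODE v44 (GRCh38), figures were drawn with matplotlib 3.10.9, and motifs were searched in RefSeq windows (GRCh38.p14).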

Additional observations from a re-analysis of the deposited data

Results flagged for a closer look

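The effect of 1 ligand on a member differed by whether another was present, by a test of the interaction, in these cases (edgeR's quasi-likelihood test, log2 scale). For EGF with OSM the terms were −3.99 for IL11, −1.67 for CLCF1, −1.53 for OSMR, −1.18 for LIF and 0.50 for IL6R. For EGF with TGFB they were 0.55 for IL6ST and −0.79 for IL6R. For OSM with TGFB they were 0.45 for IL6ST, −0.51 for OSMR and −0.40 for IL6R, and the IL6R call was lost in most of its alternatives. The EGF x OSM term itself differed with TGFB by 1.84 for IL11 and −0.40 for IL6ST, a call lost without TGFB replicate 1. Within cells given TGFB, a contrast chosen after seeing the data, the EGF x OSM term was −2.15 for IL11, −2.15 for IL6, −1.15 for OSMR, −1.07 for CLCF1, −0.99 for LIF, −0.48 for IL6ST and 1.07 for IL6R. The IL6 term is a description only, since IL6 entered the test through groups in which it was high. The LIF call was lost without OSM+TGFB replicate 3. Groups held 3 libraries each, so single libraries were not screened for outliers.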

How the results depend on the processing

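Over 176 results of single members and 2507 alternative values, 2463 did not change whether or in which direction a result was called, 29 lost the call and 15 gained it. The sign differed from the reported one in 21 values of 10 results, of which 0 were called with either sign. Most calls that depended on a library or setting stand beside their values in the report, and the others follow. In the fit of the compared groups alone, 2 members were called between PBS and T0, against 4 in all groups. The replicate numbers were not taken to pair the libraries. A correlation of deviations over 0.1 was found in 23 of 108 same-numbered pairs (median 0.0574) and in 1 of 216 pairs with different numbers (median −0.0349). Of 27 libraries, 26 were closest to their own number, a hint of pairing from the data only. With the replicate block, members called for the 3-way interaction went from 2 to 4 and genes from 607 to 1247. OSMR and LIFR were the members gained there (adjusted p = 0.0055 and 0.012), and OSMR for all 3 ligands against OSM+TGFB (0.027) and LIFR for EGF+TGFB against EGF (0.027) were also called. DESeq2 called 915 genes for the 3-way term. Leaving out each library in turn gave 1 to 3 members and 414 to 832 genes for that term; IL6R was gained without OSM replicate 3 (0.69, adjusted p = 0.020) and OSMR, for EGF x TGFB, without EGF+TGFB replicate 3 (0.25, adjusted p = 0.031). Upper-quartile scaling moved the median of all genes against PBS from −0.07 to −0.14 with EGF and from −0.04 to −0.14 with EGF+TGFB, and turned the sign of 1 uncalled value, IL6ST for EGF+OSM against OSM (0.02 to −0.0081). The cause of these shifts was not tested. IL6 differences from PBS are limited by depth, since PBS held 0 counts.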
